A study of Mus musculus with 16 samples.

Results

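Open chromatin of bone marrow progenitors was compared between diabetic and control mice at baseline, in 8 of the 16 samples of the series. The diabetic group is 4 samples (replicates 1 to 4) from male C57Bl/6 mice with diabetes induced by streptozotocin, a toxin of the insulin-producing beta cells. The control group is 4 samples from male C57Bl/6 mice that received no treatment. Only diabetic mice received streptozotocin, so drug and diabetes cannot be told apart. Bone marrow of every sample was freed of CD3, CD4, B220, Ter119 and Gr1 positive cells and lysed at once, without culture. The sample names read HSC, for stem cells, yet most cells that such depletion leaves are committed progenitors. The nuclei of 50000 cells per sample were treated with Tn5, and the labels do not say whether a sample was 1 animal or a pool, so p-values measure only the spread between these samples. The remaining portion of each sample was kept for 6 h in medium with IL-1β (interleukin-1β) at 10 ng/mL and is used only for the last comparison.

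Merging the 8 peak lists gave 94514 regions, and the 76677 that at least 2 samples had called were kept. All 8 samples had called 31905 of them, or 41.6%. The same rule over all 16 samples gives 83972 regions. By RefSeq's genes for the same assembly, 61.8% of the kept regions lay inside a protein-coding gene and 19.4% within 1 kb of an end of one. The share near a gene end was 33.6% for regions called in all 8 and 9.28% for those called in 2 to 7.

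ATAC-seq uses the transposase Tn5, which inserts sequencing adapters where DNA is free of nucleosomes, so that read pile-ups mark active promoters and enhancers. Haematopoietic stem and progenitor cells feed all blood lineages, and accessible chromatin in them marks genes in use as well as genes held ready for a later lineage. High glucose is known in mice to raise the output of neutrophils and monocytes from marrow, with the alarmins S100a8 and S100a9 and their receptor RAGE among the described signals, and chromatin marks have been described as a way in which cells may retain past exposure to glucose.

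The value used for strength is the summit fold, which is the reads at a peak's summit over the reads expected from the local background, as the authors' peak caller wrote it. The diabetic lists held 49282, 66192, 69150 and 53633 peaks in replicates 1 to 4, and the control lists held 67981, 62351, 72525 and 52477. The means were 59564 ± 9604 peaks in diabetic and 63834 ± 8639 in control samples (SD, n = 4 each; two-sided exact permutation test, p = 0.571). The genome-wide background, the best measure of depth that the lists hold, was 1.38, 1.25, 1.38 and 0.856 reads per window in diabetic replicates 1 to 4 and 1.13, 1.08, 1.71 and 1.32 in control replicates 1 to 4. Diabetic replicate 4 was therefore the shallowest library, with a median of 21 reads per summit against 30 to 46 in the other 7. The median summit fold was 8.26 ± 0.606 in diabetic and 8.85 ± 0.551 in control samples (SD, n = 4 each; exact permutation test, p = 0.2). Median peak width was 289 ± 7.57 bp in diabetic and 297 ± 2.71 bp in control samples (exact permutation test, p = 0.0857), which was the smallest p of 8 values per library. After Benjamini-Hochberg adjustment over the 8 values the lowest p was 0.457, and 70 assignments of 4 against 4 allow no p below 0.0286.

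**Figure D1:**
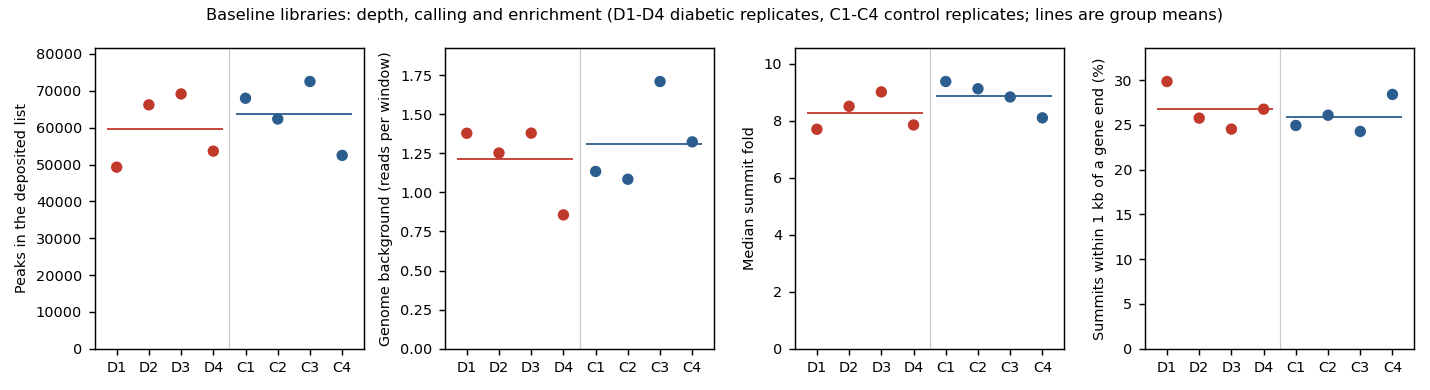
Each point is 1 baseline library, with diabetic replicates (D1 to D4) left of control replicates (C1 to C4) and lines at the group means. The panels show the number of peaks, the genome background in reads per window, the median summit fold and the percentage of summits no farther than 1 kb from a gene end; the groups overlap in all 4 panels, and D4 has the lowest background, 0.856 reads.

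Samples of 1 phenotype did not cluster apart from the other phenotype. Over the 31905 regions called in all 8, Pearson's r of log2 summit folds averaged 0.817 among diabetic samples, 0.867 among control samples and 0.830 between the groups. Diabetic replicate 4 stood apart from the rest, with r of 0.688 to 0.803 to the other 7, which correlated with each other at 0.831 to 0.890. Diabetic replicate 1 was most like control replicate 4, and diabetic replicate 3 most like control replicate 3. The mean distance (1 minus r) was 0.0123 larger between than within groups (exact permutation test, p = 0.114), and 0.00209 larger without diabetic replicate 4 (p = 0.8286, exact permutation test).

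**Figure D2:**
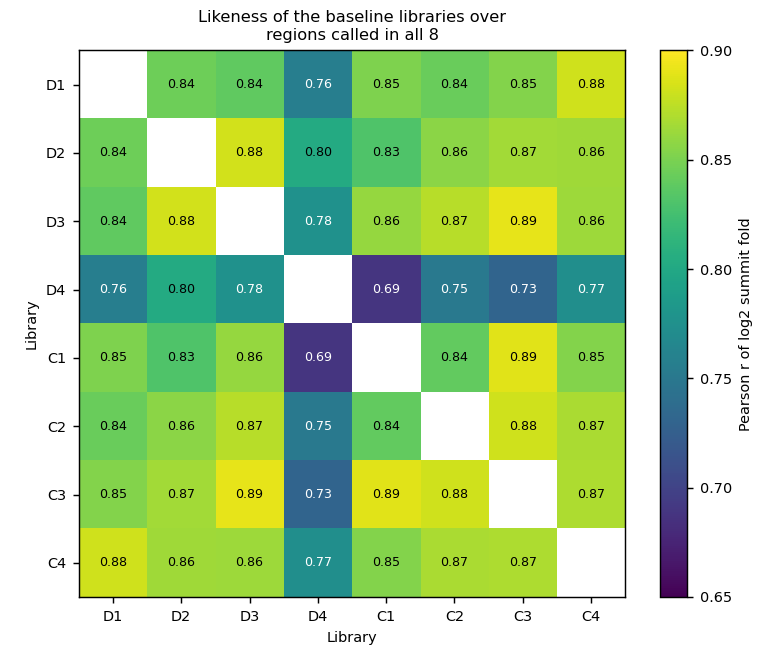
Each cell gives Pearson's r of log2 summit folds between a pair of baseline libraries over the 31905 regions called in all 8, with diabetic libraries (D1 to D4) above and left of control libraries (C1 to C4). The row of D4 holds the lowest values, 0.69 to 0.80, and the remaining cells show no division by phenotype.

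Promoter windows are shown for 6 of the discussed regions that overlap promoters, to locate the accessible DNA. None of the 6 windows lies under a region that differed between the groups at an adjusted p of 0.05. They are the promoter windows of RefSeq genes on build GRCm38.p6, 250 bases before to 50 bases after the start of the gene, 5′ to 3′ on the gene's own strand, with every match of 6 motifs on either strand in capitals. They lie for Dusp1 at chr17:26508423-26508722 on the minus strand, Fos at chr12:85473640-85473939 on the plus strand, S100a8 at chr3:90668821-90669120 on the plus strand, S100a9 at chr3:90695672-90695971 on the minus strand, Runx1 at chr16:92697280-92697579 on the minus strand and Areg at chr5:91139349-91139648 on the plus strand. The choice was made after their values were seen.
Dusp1: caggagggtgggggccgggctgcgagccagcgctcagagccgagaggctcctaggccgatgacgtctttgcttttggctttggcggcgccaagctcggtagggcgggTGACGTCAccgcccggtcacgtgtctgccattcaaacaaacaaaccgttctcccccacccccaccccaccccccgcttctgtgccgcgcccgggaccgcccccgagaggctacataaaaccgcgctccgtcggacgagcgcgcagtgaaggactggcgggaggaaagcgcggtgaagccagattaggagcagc
Fos: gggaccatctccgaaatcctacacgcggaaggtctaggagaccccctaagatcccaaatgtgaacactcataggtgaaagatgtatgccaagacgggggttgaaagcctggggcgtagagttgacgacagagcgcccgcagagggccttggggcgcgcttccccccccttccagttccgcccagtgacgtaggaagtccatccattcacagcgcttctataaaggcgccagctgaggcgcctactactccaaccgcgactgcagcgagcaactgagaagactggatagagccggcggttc
S100a8: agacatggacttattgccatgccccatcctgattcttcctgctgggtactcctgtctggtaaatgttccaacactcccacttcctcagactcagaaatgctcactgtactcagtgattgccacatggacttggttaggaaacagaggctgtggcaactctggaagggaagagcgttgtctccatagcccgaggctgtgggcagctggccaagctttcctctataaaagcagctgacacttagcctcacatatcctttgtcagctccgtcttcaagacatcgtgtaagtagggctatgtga
S100a9: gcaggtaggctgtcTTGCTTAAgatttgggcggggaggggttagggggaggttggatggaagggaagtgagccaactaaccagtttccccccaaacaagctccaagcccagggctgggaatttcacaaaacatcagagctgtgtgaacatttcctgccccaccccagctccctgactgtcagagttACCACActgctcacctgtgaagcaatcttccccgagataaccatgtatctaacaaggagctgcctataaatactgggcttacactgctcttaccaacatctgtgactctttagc
Runx1: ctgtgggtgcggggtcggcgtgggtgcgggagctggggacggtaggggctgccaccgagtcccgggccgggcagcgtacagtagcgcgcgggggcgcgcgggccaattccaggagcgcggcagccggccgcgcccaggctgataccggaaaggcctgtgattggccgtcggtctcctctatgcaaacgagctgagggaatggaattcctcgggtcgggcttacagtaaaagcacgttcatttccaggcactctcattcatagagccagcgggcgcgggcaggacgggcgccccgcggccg
Areg: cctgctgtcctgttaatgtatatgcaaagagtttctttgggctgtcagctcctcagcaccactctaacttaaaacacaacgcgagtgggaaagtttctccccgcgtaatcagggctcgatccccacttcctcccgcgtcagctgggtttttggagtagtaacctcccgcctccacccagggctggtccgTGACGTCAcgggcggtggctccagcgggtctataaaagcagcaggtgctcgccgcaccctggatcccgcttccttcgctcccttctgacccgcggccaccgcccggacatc

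The motifs searched were those of AP-1 (TGANTCA), CREB (TGACGTCA), C/EBP (TTNNGCAA), RUNX (TGTGGT) and ETS factors (CCGGAAGT) and the serum response factor's CArG box. The windows of Dusp1 and Areg each hold the CREB motif, whose first base is 143 bases before the start of Dusp1 and 61 before that of Areg. The S100a9 window holds a C/EBP and a RUNX motif on the opposite strand, and those of Fos, S100a8 and Runx1 hold none of the exact letters searched. The CREB motif stood in 1.79% of all 32807 promoter windows and in 3.51% of the 11844 windows under regions called in all 8 samples. It stood in 12 of 384 windows (3.13%) under regions higher in diabetic samples at an unadjusted p of 0.05 and in 0 of 58 under lower ones. The AP-1 motif stood in 7.82% of all windows, in 4.44% of those under tested regions, in 21 of the 384 (5.47%) and in 7 of the 58 (12.1%). C/EBP and RUNX motifs stood in 10.8% and 16.8% of all windows and in 8.10% and 12.2% of those under tested regions. A match describes the letters and does not show that a factor binds.

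Calling a region as open or closed separated the phenotypes in few places. To remove the effect of list length, each list was cut to its 49282 peaks with the highest −log10 p, which left 60331 regions called in at least 2 samples. Of these, 54 were called in 4 of 4 diabetic and 0 of 4 control samples, 0.0895% of regions, and 166 were called in 0 of 4 diabetic and 4 of 4 control samples, 0.275%. Fisher's exact test per region called none (lowest adjusted p = 1). A split of 4 to 0 has an exact p of 0.0286, so at least 34475 regions would have to split that way before any could pass the adjustment. With full lists 20 regions were found in all diabetic samples alone and 219 in all control samples alone, an order that turned without diabetic replicate 1, which had the shortest list, to 359 and 327. Without diabetic replicate 4, the equal-length lists gave 116 regions in all 3 remaining diabetic samples alone and 207 in all control samples alone. Leaving out diabetic replicate 1 instead gave 305 and 482, the highest counts of any sample left out, and with 3 samples in a group such a split is met more easily.

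Few of these regions lacked a peak altogether in the other group. Of the 54 regions called only in the diabetic equal-length lists, 53 were called in at least 1 full control list, and of the 166 called only in the control lists, 140 were called in at least 1 full diabetic list. Of the 54, 11.1% lay within 1 kb of a gene end, and of the 166, 4.22%. With full lists the share was 19.4% of all kept regions and 9.28% of those called in 2 to 7 samples. The latter is the nearer comparison, since a region split by calls is not called in all 8. The strongest regions called only in diabetic samples lay in Cobll1, Areg, Rad54b, Ctsl, Sp8 and Chmp2b. Areg encodes amphiregulin, a ligand of the epidermal growth factor receptor, and its region overlaps the promoter printed above. The Areg summit fold was 4.63, 6.66, 8.83 and 6.23 in diabetic replicates 1 to 4, against 4.69, 4.06 and 3.87 in control replicates 1, 3 and 4 and no peak in control replicate 2. Its highest control value therefore exceeded its lowest diabetic value. Ctsl, which encodes the lysosomal protease cathepsin L, had folds of 3.85, 7.60, 5.27 and 5.77 in diabetic samples, against 4.00, 3.57 and 3.68 in control replicates 1 to 3 and no peak in control replicate 4.

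Strong regions called only in control samples included an intergenic one on chromosome 19 and regions at Clec2d, Pabpc1l, Mob3c and Sipa1l1. The region 33494 bp from Clec2d, which encodes a C-type lectin-like ligand of natural killer cell receptors, lies at chr6:129146725-129147121. It had no peak in any full diabetic list, against folds of 6.09, 11.2, 9.60 and 6.03 in control replicates 1 to 4 on 12, 24, 25 and 13 summit reads. The region in Sipa1l1, a signalling protein acting on Rap GTPases, had folds of 4.00 and 5.04 in diabetic replicates 2 and 3 and no peak in replicates 1 and 4, against 7.03, 10.1, 7.75 and 6.89 in control samples. In IL-1β portions of the same samples, the Clec2d region was called in 0 of 4 diabetic and 2 of 4 control lists.

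No region differed in summit fold past the threshold. Over the 31905 regions called in all 8, limma with a trended prior called 0 regions (0%) at an adjusted p of 0.05, and the lowest adjusted p was 0.362. At an unadjusted p of 0.05, 1108 regions (3.47%) were higher and 1168 (3.66%) lower in diabetic samples. After scaling, all 4 diabetic values lay above all 4 control values in 652 regions, 2.04% of those tested, and below them in 537, or 1.68%. Without diabetic replicate 4 the fit also called 0 regions (lowest adjusted p = 0.498), with 681 higher (2.13%) and 881 lower (2.76%) at an unadjusted p of 0.05. Deviations were small throughout, since 98.3% of regions had a log2 difference below 0.5 in size, and the extremes were -1.07 and 0.86. The 95% confidence interval had a median half-width of 0.33 on the log2 scale and lay within ±1 for 31609 regions, 99.1%.

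The balance of higher and lower regions depended on how libraries were scaled. The unadjusted counts were 240 higher and 2341 lower with no scaling, 829 and 1480 with cyclic loess, and 1446 (4.53%) and 893 (2.8%) when the recovered summit reads replaced the fold. The median log2 difference of all regions was 0.05 with equal medians, -0.05 with no scaling and 0.08 for summit reads. None of these fits called a region. Below, the folds of single samples at a region are as deposited and their summit reads are unscaled. Overlap of the groups at a region refers to these values unless scaled ones are named. Log2 differences, SEs, p-values, counts by p and means over several regions are given with equal medians unless another scale is named.

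The region with the smallest p of all lay 22656 bp from Tiam1, which encodes an activator of the GTPase Rac, at chr16:89763821-89764455. Its summit fold was 5.47, 5.77, 7.91 and 4.85 in diabetic replicates 1 to 4, against 12.3, 11.6, 13.1 and 9.66 in control replicates 1 to 4. The groups did not overlap, the log2 difference was -0.88 (SE 0.15), and the adjusted p was 0.362 (limma). On summit reads the region held 12, 12, 19 and 8 reads in diabetic samples, against 30, 26, 38 and 25 in control samples. A region in Usp46, which encodes a deubiquitinating enzyme, had folds of 4.91, 4.94, 4.27 and 4.31 in diabetic samples, against 9.15, 8.86, 8.57 and 7.12 in control samples. Its spread within each group was narrow, with means of 4.61 ± 0.367 in diabetic and 8.42 ± 0.902 in control samples (SD, n = 4 each; log2 difference -0.77, SE 0.16, limma adjusted p = 0.681).

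The largest log2 difference of any region, -1.07 (SE 0.22, limma adjusted p = 0.681), was in Mtbp, which encodes a protein needed to start DNA replication. Its folds were 4.20, 3.11, 6.30 and 4.85 in diabetic samples, against 7.03, 13.0, 11.8 and 9.47 in control samples, on 6 to 14 reads in diabetic and 14 to 31 reads in control samples. A region in Elf1, a transcription factor of the ETS family used in blood cells, had folds of 5.08, 4.49, 5.58 and 4.08 in diabetic samples, against 10.4, 9.50, 8.62 and 6.46 in control samples (log2 difference -0.75, SE 0.17, limma adjusted p = 0.681). Regions of the same order lay in Man2a1, Gpalpp1, St7, Rab10 and Cwc27, with log2 differences of -0.80, -0.73, -0.78, -0.69 and -0.70. In each of the 12 lower regions chosen by p, the 4 diabetic folds were below the 4 control folds. That separation was part of what a small p selects and, on scaled values, was met in 1.68% of all regions.

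**Figure D3:**
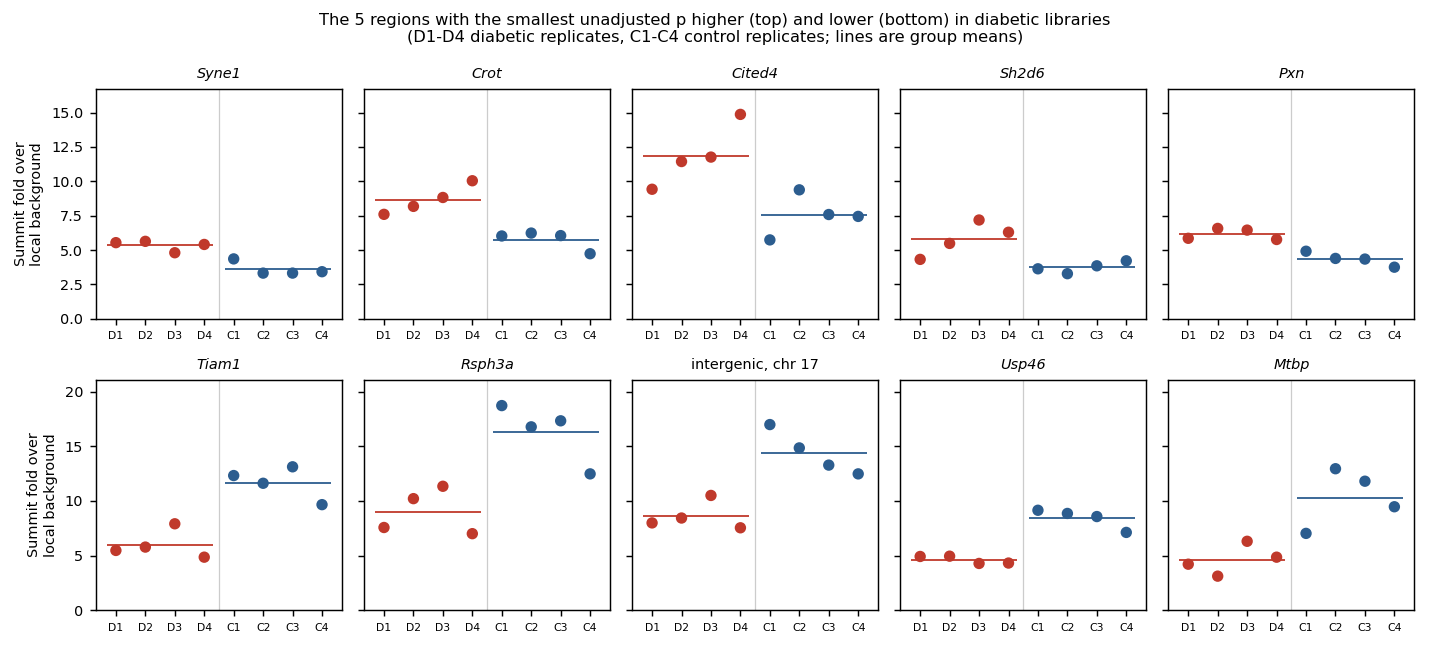
Each panel shows the summit fold of 1 region in the 8 baseline libraries, with diabetic replicates (D1 to D4) left of control replicates (C1 to C4) and lines at the group means. The top row holds the 5 regions higher in diabetic libraries with the smallest unadjusted p and the bottom row the 5 lower ones; the groups do not overlap in these panels, and no region reached an adjusted p of 0.05 (lowest 0.362).

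The next regions by p lay close together on chromosome 17. The first, at chr17:7999319-7999692 and 19763 bp from Rsph3a, a gene for a component of the axoneme of cilia, had folds of 7.57, 10.2, 11.3 and 7.0 in diabetic samples, against 18.7, 16.8, 17.3 and 12.5 in control samples (log2 difference -0.77, SE 0.13, limma adjusted p = 0.362). The other, at chr17:8051237-8051538 with no gene within 50 kb, had 7.99, 8.44, 10.5 and 7.54 in diabetic samples, against 17.0, 14.9, 13.3 and 12.5 in control samples (log2 difference -0.64, SE 0.12, limma adjusted p = 0.507). It was also the 1 region called when all 16 libraries entered a fit of 4 group means (log2 difference -0.66, limma adjusted p = 0.0365 over 24955 regions), a fit that treats both portions of a sample as independent. In the IL-1β portions its folds were 7.59, 9.19, 8.05 and 8.13 in diabetic samples, against 14.5, 10.0, 12.2 and 13.3 in control samples, again with no overlap. The other regions tested within 100 kb of it lay near Rnaset2a, which encodes a lysosomal ribonuclease, with log2 differences of -0.38 and 0.27 (unadjusted p = 0.107 and 0.130, limma). After IL-1β they differed by -0.21 and -0.19.

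Among regions higher in diabetic samples, the smallest p belonged to a region in Syne1, which encodes the nuclear envelope protein nesprin-1, at chr10:5163833-5164098. Its fold was 5.54, 5.64, 4.81 and 5.41 in diabetic replicates 1 to 4, against 4.36, 3.33, 3.33 and 3.43 in control replicates 1 to 4 (log2 difference 0.67, SE 0.15, limma adjusted p = 0.681). On reads it held 28, 28, 26 and 13 in diabetic samples, against 24, 19, 24 and 18 in control samples, so the groups overlapped in reads although not in fold. A region 6925 bp from Cited4, a coactivator that binds CBP and p300, had folds of 9.42, 11.4, 11.8 and 14.9 in diabetic samples, against 5.74, 9.38, 7.59 and 7.45 in control samples (log2 difference 0.76, SE 0.18, limma adjusted p = 0.681).

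Other higher regions lay inside genes. Pxn encodes paxillin, an adaptor of focal adhesions, and a region in it had folds of 5.86, 6.58, 6.45 and 5.77 in diabetic samples, against 4.92, 4.39, 4.35 and 3.76 in control samples (log2 difference 0.61, SE 0.14, limma adjusted p = 0.681). Ptpn22 encodes a phosphatase that restrains antigen receptor signalling, and its region had folds of 5.82, 7.31, 5.58 and 8.66 in diabetic samples, against 2.82, 5.09, 4.58 and 3.83 in control samples (log2 difference 0.86, SE 0.21, limma adjusted p = 0.681). The log2 differences were 0.69 near Crot, 0.72 near Sh2d6, 0.77 at an end of Rps6kc1, 0.66 in Mnd1 and 0.59 in Dse. In 2 of the 12, the region in Dse and an intergenic one on chromosome 11, the deposited folds of the groups overlapped, and only the scaled values did not.

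Averaging over the regions of a gene did not give a call either. For 5235 genes with at least 3 tested regions within 10 kb, limma called 0, with a lowest adjusted p of 0.637. At an unadjusted p of 0.05, 301 genes (5.75%) were higher and 93 (1.78%) lower in diabetic samples, against 155 and 80 without diabetic replicate 4, 26 and 401 with no scaling and 167 and 165 with cyclic loess. Dusp1, which encodes a phosphatase that switches off MAP kinases and is induced quickly by stress or glucocorticoid, had the smallest p among the higher genes. The mean scaled log2 fold of its 4 regions was -0.40, -0.61, -0.62 and -0.11 in diabetic replicates 1 to 4, against -0.75, -0.84, -0.93 and -0.85 in control replicates 1 to 4. The difference was 0.41 (SE 0.10, limma adjusted p = 0.637) and 0.30 without diabetic replicate 4, with all diabetic values above all control values. With summit reads in place of the fold, the difference for Dusp1 was -0.05.

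The other genes at the top were Inpp1, Gimap7, Pgd and Rpl38. Pgd encodes an enzyme of the pentose phosphate pathway, which draws on glucose to make NADPH, and its 3 regions averaged 0.38, 0.27, 0.30 and 0.52 in diabetic samples, against 0.00, 0.08, -0.10 and 0.24 in control samples (log2 difference 0.31, SE 0.09, limma adjusted p = 0.637). Inpp1 encodes an inositol polyphosphate phosphatase, and Gimap7 a GTPase of lymphocytes; their differences were 0.31 and 0.30. Rpl38, a ribosomal protein gene, differed by 0.28. At the lower end, Gmds, an enzyme that makes GDP-fucose, differed by -0.35 over 5 regions, with -0.23, -0.12, -0.21 and -0.17 in diabetic samples, against 0.23, 0.30, 0.09 and 0.03 in control samples (SE 0.08, limma adjusted p = 0.637). Pdzrn3, Sh2d1b1, Pla2r1 and Rassf8 differed by -0.34, -0.38, -0.35 and -0.27.

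The direction of the small differences followed the position of regions. Of 10709 tested regions within 1 kb of a gene end, 381 (3.56%) were higher and 103 (0.962%) lower at an unadjusted p of 0.05. Of the 21196 farther away, 727 (3.43%) were higher and 1065 (5.02%) lower. The median log2 difference was 0.09 near gene ends and 0.01 away from them. The mean scaled log2 fold near gene ends was 0.30, 0.24, 0.19 and 0.39 in diabetic replicates 1 to 4, against 0.16, 0.21, 0.16 and 0.29 in control replicates 1 to 4, so the groups overlapped and diabetic replicate 4 was highest.

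The local background divided the regions further. Regions were placed in 5 classes of 6381 by their local background relative to the genome background, whose medians ran from 1.10 to 6.63. In the lowest class, 244 regions were higher and 521 lower at an unadjusted p of 0.05, and in the highest class, 301 were higher and 5 lower. The median log2 difference was -0.03 in the lowest class and 0.13 in the highest, and -0.02 and 0.07 without diabetic replicate 4. When reads were divided by the local background without the 1 that the peak caller adds to both, the medians were -0.06 and 0.10. For summit reads alone, they were 0.11 in both. The 12 lower regions named by p had local backgrounds of 1.0 to 1.35 times the genome background, near the bottom of the range, and the 12 higher ones 1.0 to 3.45 times.

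Immediate-early genes had the highest median log2 fold difference of the 28 gene lists, 0.20; without diabetic replicate 4 it was 0.13, behind the 11 regions of mast cell and basophil genes at 0.21. These are genes of the AP-1 family (Fos and Jun proteins) and other transcription factors and feedback genes that cells switch on soon after a stimulus. All 17 genes of the list had tested regions, 55 in all, with 16 higher and 0 lower at an unadjusted p of 0.05, beside 3.47% higher among all regions. The median log2 difference was 0.20, beside 0.05 for all regions. Differences were above 0 in 49 of 55 regions, beside 19025 of 31905 among all regions. A region higher at an unadjusted p of 0.05 was present at 7 of the 17 genes. At the Dusp1 promoter the fold was 3.72, 5.03, 3.97 and 6.50 in diabetic replicates 1 to 4, against 3.43, 3.37, 3.14 and 3.22 in control replicates 1 to 4. The groups did not overlap, and the log2 difference was 0.61 (SE 0.17, limma adjusted p = 0.683). At the Fos promoter the fold was 3.76, 3.48, 3.59 and 5.53 in diabetic samples, against 3.58, 3.04, 2.81 and 3.15 in control samples. By these deposited folds diabetic replicate 2 was below control replicate 1, and the log2 difference was 0.46 (unadjusted p = 0.0119, limma).

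The highest summit reads of these regions did not share the difference. On summit reads, 0 of the 55 regions were higher and 1 was lower at an unadjusted p of 0.05, and the median log2 difference was 0.00, beside 0.08 for all regions. The Dusp1 promoter held 116, 127, 125 and 84 summit reads in diabetic replicates 1 to 4, against 120, 125, 144 and 117 in control replicates 1 to 4. The Fos promoter held 120, 98, 112 and 73 in diabetic samples, against 125, 122, 138 and 120 in control samples. The local background under the 55 regions had a median log2 difference of -0.20, below 0 in all but 3. Among all 31905 regions it was above 0 in 18909. The list's median log2 local background relative to all regions was 2.00, 1.90, 1.99 and 1.60 in diabetic replicates 1 to 4. In control replicates 1 to 4 it was 2.00, 2.22, 1.95 and 2.03, so the groups overlapped. The local background of the list was high in every sample, with a median of 9.57 times the genome background, beside 2.39 for all regions. Without diabetic replicate 4, 6 of the 55 were higher in fold and the median was 0.13. The list's mean scaled log2 fold was -0.55, -0.65, -0.70 and -0.37 in diabetic replicates 1 to 4, against -0.78, -0.80, -0.83 and -0.67 in control replicates 1 to 4, so these means overlapped. The list's medians, relative to each library's median over all regions, were -0.66, -0.78, -0.78 and -0.42 in diabetic samples, against -0.88, -0.89, -0.82 and -0.83 in control samples, and did not overlap.

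**Figure D4:**
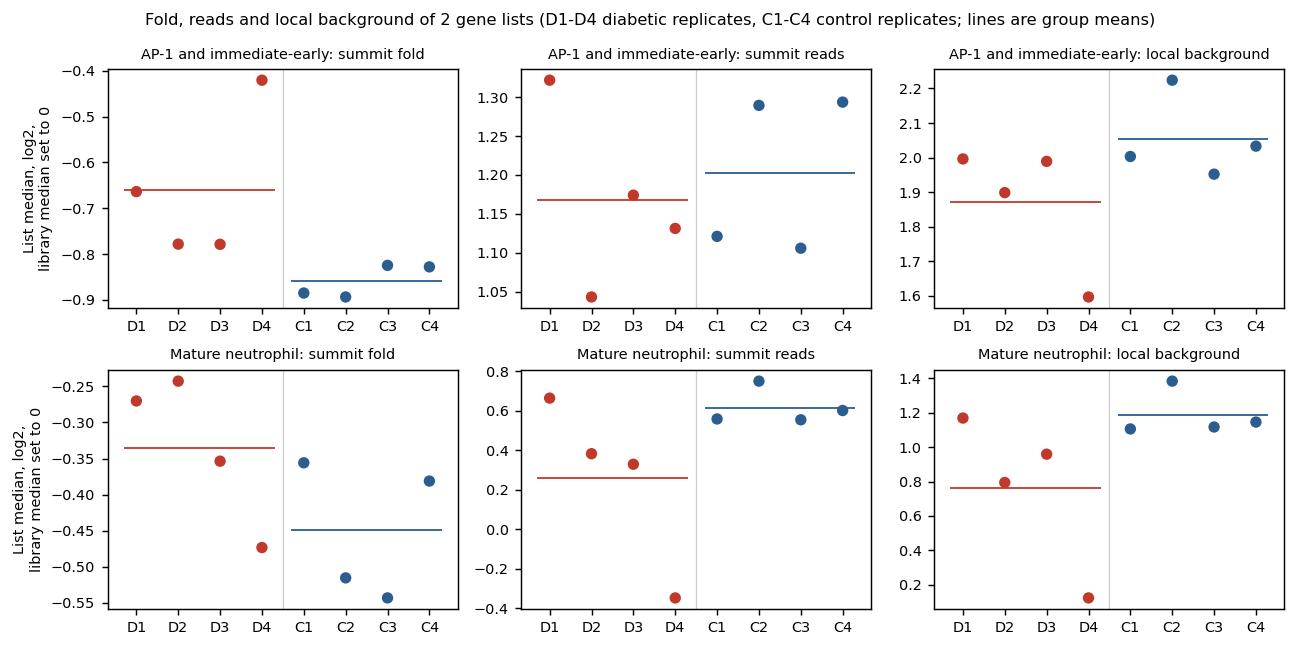
Each point is 1 baseline library's median over the list's regions, in log2 with the library's median over all 31905 regions set to 0, and diabetic replicates (D1 to D4) stand left of control replicates (C1 to C4), with lines at the group means. For the 55 AP-1 and immediate-early regions the diabetic fold is higher while reads do not differ in median (0.00). Their local background is lower in median, though its library values overlap between the groups. For the 40 mature neutrophil regions, D4 is lowest in reads and in local background.

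Genes of mature neutrophils showed opposite signs in fold and in reads. In bulk samples, fewer cells of a type and less accessible DNA per cell cannot be told apart. Of 40 regions at 14 neutrophil genes, 6 were higher and 1 lower in fold at an unadjusted p of 0.05, beside 3.47% and 3.66% of all regions. The median log2 difference was 0.12. Without diabetic replicate 4, 3 of the 40 were higher and 0 lower in fold, beside 2.13% and 2.76% of all regions. With no scaling 2 were higher and 2 lower. On summit reads, 0 were higher and 9 lower, beside 2.8% lower among all regions, with a median of -0.29. The local background under them had a median log2 difference of -0.50, below 0 in all but 2 regions. Among all 31905 regions it was above 0 in 18909. The list's median log2 local background relative to all regions was 1.17, 0.79, 0.96 and 0.12 in diabetic replicates 1 to 4. In control replicates 1 to 4 it was 1.11, 1.38, 1.12 and 1.15, so diabetic replicate 1 lay among the controls. The list's median log2 reads relative to all regions was 0.66, 0.38, 0.33 and -0.35 in diabetic replicates 1 to 4, against 0.56, 0.75, 0.55 and 0.60 in control replicates 1 to 4. Diabetic replicates 2, 3 and 4 were below all controls and replicate 1 was above 3 of them. Without diabetic replicate 4, 1 of the 40 was higher and 8 lower on reads, beside 3.14% higher and 2.08% lower of all regions, with a median of -0.15.

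S100a8 and S100a9 encode the subunits of calprotectin, a protein of neutrophils and monocytes, and belong to the neutrophil list as well as the alarmin list. At the S100a8 promoter the fold was 6.26, 6.70, 6.89 and 9.72 in diabetic replicates 1 to 4, against 6.47, 5.45, 5.73 and 5.74 in control replicates 1 to 4 (log2 difference 0.42, SE 0.18, limma adjusted p = 0.691). The summit reads there were 85, 76, 88 and 35 in diabetic samples, against 105, 102, 119 and 92 in control samples. Every diabetic library thus had fewer reads than every control library, before any scaling for depth, while the deposited folds of the groups overlapped. At the S100a9 promoter the fold was 4.65, 5.29, 5.66 and 7.08 in diabetic samples, against 5.06, 4.92, 4.06 and 4.13 in control samples. The summit reads were 94, 85, 106 and 35 in diabetic and 114, 127, 115 and 92 in control samples. Both the reads and the deposited folds of the groups overlapped there. The scaled folds overlapped neither at S100a8 nor at S100a9. The list of S100 alarmins and their receptors had 3 regions higher and 0 lower of 29 in fold (median 0.13), beside 3.47% and 3.66% of all regions, and 2 higher and 3 lower on reads (median -0.00). In fold it had 1 higher and 0 lower without diabetic replicate 4, and 0 higher and 2 lower with no scaling.

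Of the neutrophil genes, the region in Mmp9, a gelatinase stored in granules, had folds of 3.74, 7.15, 6.72 and 6.94 in diabetic replicates 1 to 4, against 4.56, 3.33, 4.06 and 4.27 in control replicates 1 to 4 (log2 difference 0.66, SE 0.19, limma adjusted p = 0.683). Diabetic replicate 1 lay among the controls. Retnlg, which encodes a resistin-like protein of neutrophils, had 4.37, 5.05, 4.78 and 4.38 in diabetic samples, against 4.04, 4.04, 3.99 and 3.57 in control samples (log2 difference 0.35, SE 0.13, limma adjusted p = 0.691). Il1r2, the decoy receptor that captures IL-1, had 6.64, 7.73, 7.23 and 9.06 in diabetic samples, against 6.58, 6.60, 5.15 and 6.07 in control samples (log2 difference 0.43, SE 0.17, limma adjusted p = 0.691). Summit reads of the groups overlapped in each of these regions. They were 28, 36, 38 and 14 against 32, 23, 39 and 24 at Mmp9, and 55, 44, 53 and 23 against 55, 61, 68 and 44 at Retnlg. At Il1r2 they were 119, 89, 95 and 42 in diabetic samples, against 108, 115, 110 and 91 in control samples.

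Other lineage lists had read medians on either side of 0. Erythroid genes, which serve haemoglobin and red cell formation, had a median log2 difference of 0.34 on reads. The difference was positive in 29 of 32 regions, beside 19740 of 31905 among all regions. Of the 32 erythroid regions, 1 was higher and 0 lower at an unadjusted p of 0.05. Their median log2 reads relative to all regions was -0.51, 0.46, 0.34 and 0.96 in diabetic replicates 1 to 4, against -0.71, 0.38, -0.08 and -0.05 in control replicates 1 to 4. The groups overlapped widely, and without diabetic replicate 4 the median difference was 0.12. Granulocyte and monocyte progenitor genes had a median of -0.13 on reads, with 0 higher and 3 lower of 28, beside 2.8% lower among all regions. Their median was -0.02 without diabetic replicate 4, with 0 higher and 1 lower. Monocyte and macrophage genes had a median of -0.13 on reads, with 1 higher and 1 lower of 28, and -0.02 without diabetic replicate 4. Stem cell genes had a median of 0.17 on reads, or 0.09 without diabetic replicate 4, and of 0.07 in fold, with 0 of 29 regions higher or lower in fold. The remaining cell type lists had medians between -0.06 (mast cells and basophils) and 0.24 (stroma and endothelium) on reads. The median without diabetic replicate 4 was 0.10 for mast cells and basophils, the opposite sign, and 0.15 for stroma and endothelium. Depletion for Ter119 and Gr1 removes maturing red cells and granulocytes, and the part of any such remaining cells in these values was not tested.

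**Figure D5:**
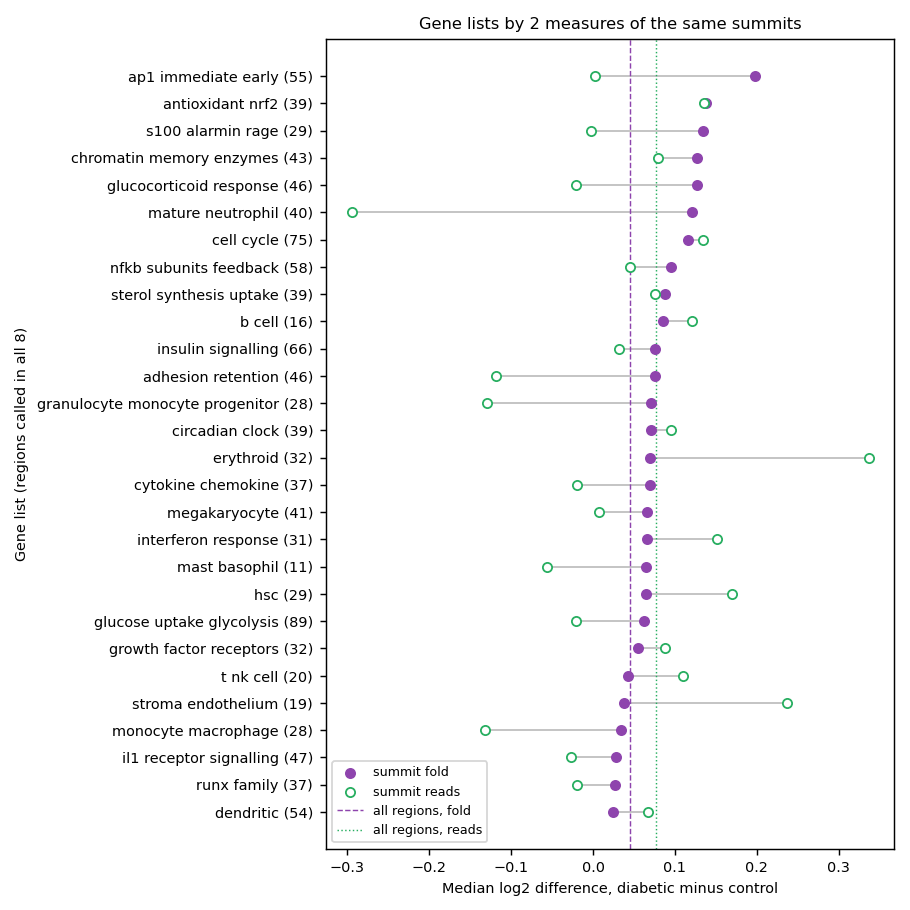
Each row is a gene list, with the number of its regions called in all 8, and points give the median log2 difference, diabetic minus control, by summit fold (filled) and by summit reads (open); vertical lines give the medians over all 31905 regions. The fold medians lie between 0.02 and 0.20, while the read medians spread from -0.29 (mature neutrophil) to 0.34 (erythroid).

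Stem cell regulators were accessible in both groups and did not differ past the threshold. A region at Mecom, a transcription factor needed by long-term stem cells, had folds of 6.99, 6.66, 6.65 and 7.0 in diabetic replicates 1 to 4, against 5.90, 5.28, 6.09 and 7.14 in control replicates 1 to 4. Of the 18 stem cell markers, 14 had a region called in all 8 samples, with log2 differences from -0.26 to 0.33. At the Runx1 promoter printed above, which lies inside the annotated gene and serves a factor required for definitive blood formation, the fold was 7.91, 8.70, 8.89 and 11.5 in diabetic samples, against 7.52, 6.99, 6.97 and 7.54 in control samples (log2 difference 0.44, SE 0.16, limma adjusted p = 0.691). Its reads were 62, 77, 87 and 58 in diabetic samples, against 74, 63, 84 and 58 in control samples, and overlapped. Regions at Runx2 and Runx3, its relatives in bone and lymphocytes, differed by -0.49 and -0.38, so that the Runx list as a whole had 1 region higher and 3 lower of 37 and a median of 0.03; without diabetic replicate 4 it had 0 higher and 2 lower and a median of -0.02. A region in Csf1r, the receptor for the monocyte growth factor M-CSF, had 3.65, 5.01, 5.07 and 3.92 in diabetic samples, against 6.85, 7.15, 6.90 and 5.29 in control samples (log2 difference -0.47, SE 0.15, limma adjusted p = 0.683).

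Genes that handle glucose had regions in both directions, at shares near those of all regions. Of 89 regions at 22 genes of glucose uptake and glycolysis, 4 were higher and 2 lower at an unadjusted p of 0.05, with a median of 0.06, beside 3.47% higher and 3.66% lower among all regions. With no scaling 1 was higher and 4 were lower. A region in Pfkp, the platelet form of phosphofructokinase, had folds of 5.33, 4.88, 4.13 and 6.06 in diabetic replicates 1 to 4, against 3.50, 4.26, 3.12 and 3.75 in control replicates 1 to 4 (log2 difference 0.57, SE 0.17, limma adjusted p = 0.683). A region at Pfkfb3, which makes the activator of phosphofructokinase, had 7.63, 12.1, 9.46 and 5.39 in diabetic samples, against 12.4, 13.3, 14.3 and 11.3 in control samples (log2 difference -0.52, SE 0.18, limma adjusted p = 0.683). Of 66 regions of the insulin pathway, 3 were higher and 1 lower, with a median of 0.08, also near the shares of all regions. The counts were 0 and 0 without diabetic replicate 4, and with no scaling 0 higher and 5 lower. The region at Insr, the insulin receptor, had 15.1, 14.3, 15.0 and 14.8 in diabetic samples, against 14.7, 15.1, 11.8 and 12.7 in control samples. These deposited folds of the groups overlapped, while the scaled ones did not (log2 difference 0.23, SE 0.10, limma adjusted p = 0.691). With a median of 0.14 in fold and on reads, genes of the Nrf2 antioxidant response had 3 regions higher and 0 lower of 39 in fold. On reads the counts were 4 and 0, beside 4.53% and 2.8% of all regions. Leaving out diabetic replicate 4, these were 1 higher and 0 lower in fold (median 0.08) and 1 higher and 2 lower on reads (median 0.06). A region at Slc7a11, the cystine transporter, had 4.34, 4.14, 4.90 and 5.38 in diabetic samples, against 4.11, 3.69, 3.62 and 3.70 in control samples (log2 difference 0.41, SE 0.14, limma adjusted p = 0.683).

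Interferon genes were, by fold, the list of the 28 with the most lower regions for its size, 4 of 31 with 0 higher, beside 3.66% lower among all regions. The median of the list was 0.07. Without diabetic replicate 4 the count was also 0 higher and 4 lower, with a median of 0.01, beside 0.03 for all regions. A region 6941 bp from Ifit1 and inside Ifit1bl2, an interferon-induced gene cluster, had folds of 5.93, 7.39, 6.00 and 5.20 in diabetic replicates 1 to 4, against 9.29, 10.2, 9.48 and 10.1 in control replicates 1 to 4 (log2 difference -0.58, SE 0.15, limma adjusted p = 0.683). The groups did not overlap. On summit reads the list had 4 regions higher and 4 lower, beside 4.53% and 2.8% of all regions. Without diabetic replicate 4 it had 2 higher and 4 lower on reads, beside 3.14% and 2.08% of all regions.

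Inflammatory genes showed single regions in both directions. Of 37 regions of cytokine and chemokine genes, 1 was higher and 2 lower, beside 3.47% and 3.66% of all regions. The region 9055 bp from Il1b, which encodes IL-1β, had 7.56, 10.6, 8.05 and 6.09 in diabetic replicates 1 to 4, against 11.3, 11.8, 11.4 and 11.7 in control replicates 1 to 4 (log2 difference -0.44, SE 0.15, limma adjusted p = 0.683), and one 4055 bp from Il12b, a subunit of interleukin-12, had 5.94, 5.04, 6.92 and 4.53 in diabetic samples, against 8.98, 9.76, 8.45 and 7.28 in control samples (log2 difference -0.53, SE 0.16, limma adjusted p = 0.683). The deposited folds of the groups overlapped in neither region, though the scaled ones did at Il1b. Genes of NF-κB and its inhibitors had 3 regions higher and 1 lower of 58, and genes of the IL-1 receptor pathway 3 higher and 1 lower of 47. Both lists had 1 higher and 1 lower without diabetic replicate 4, and with no scaling they had 0 higher and 2 lower (NF-κB) and 1 higher and 4 lower (IL-1 receptor). A region at Irak2, a kinase that carries the IL-1 signal, had 3.90, 5.35, 5.13 and 6.54 in diabetic samples, against 3.84, 4.10, 3.69 and 4.27 in control samples (log2 difference 0.47, SE 0.17, limma adjusted p = 0.684).

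The remaining lists gave counts between 0 and 5 in each direction. Adhesion and marrow retention genes had 5 regions higher and 1 lower of 46, led by Itga4, the alpha-4 integrin that holds progenitors in marrow, with 6.21, 9.29, 8.06 and 10.4 in diabetic samples, against 5.51, 6.94, 6.08 and 5.39 in control samples (log2 difference 0.59, SE 0.18, limma adjusted p = 0.683). On reads the adhesion list had 1 higher and 1 lower, with a median of -0.12, beside 0.08 in fold; without diabetic replicate 4 it had 3 higher and 1 lower on reads and a median of 0.02. Glucocorticoid-responsive genes, which include Dusp1, had 5 higher and 2 lower of 46, but 1 and 3 with no scaling. Chromatin-modifying enzymes had 3 higher and 0 lower of 43, but 0 and 0 without diabetic replicate 4 or with no scaling. Cell cycle genes had 2 higher and 1 lower of 75, but 1 and 3 with no scaling. Growth factor receptors had 2 higher and 1 lower of 32, but 0 and 1 under either change. Sterol genes had 1 and 1 of 39, and clock genes 0 and 0 of 39. Among all regions 3.47% were higher and 3.66% lower. The mean fold of none of the 28 lists separated the 4 diabetic from the 4 control samples.

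The portions of the same samples that were cultured with IL-1β give a further look at the same mice, though not at other animals. Of the 31905 regions, 25001 were also called in all 8 IL-1β lists, and 62.2% of them had the same sign of diabetic minus control difference there. Of 779 regions higher at baseline at an unadjusted p of 0.05, 585 (75.1%) were higher after IL-1β, and of 801 lower ones, 575 (71.8%) were lower. The 4 named higher and 7 named lower regions that could be followed all kept their sign; the region at Cited4 differed by 0.37 and the intergenic one on chromosome 17 by -0.54 after IL-1β. The genome background of the IL-1β libraries was 1.503, 1.285, 1.359 and 1.215 reads in diabetic replicates 1 to 4, against 1.208, 1.297, 1.048 and 1.101 in control replicates 1 to 4, so that the depth of the groups stood in the other order than at baseline. Both portions of a sample come from the same animal or animals, so this count measures repeatability within samples and not between mice.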

How the data were processed

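One ATAC-seq peak list per sample was deposited, on mm10. The submitters' processing notes name MACS2 2.1.1, Bowtie2 2.2.6, edgeR, DiffBind 2.4.8, FastQC 0.11.3 and Trim Galore 1.8, with no role or order; read shifting and duplicate removal are not given in the sources used here. The values of each peak, as the authors deposited them, are a summit fold (a ratio over local background), −log10 of p and of q, the offset of the summit and a score. No read totals were used, so depth is known through the background only. The deposited fold is (n + 1) / (λ + 1) and p comes from a Poisson law, so summit reads n and local background λ were recovered, matching −log10 p within 0.001 for 99.9987% to 100% of summits per sample.

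For regions called in all 8, log2 of the highest summit fold was scaled to equal medians and fitted with limma 3.58.1 in R 4.3.3 (trended prior, diabetic against control, Benjamini-Hochberg adjustment over all regions, threshold 0.05). The reads of a region are likewise the highest of its summits, taken separately, so fold and reads may come from different summits. The local background is that of the summit with the highest fold. Restricting to all 8 leaves out gained or lost regions, which the call counts cover. Calls were tested with Fisher's exact test in scipy 1.17.1 and values per library with exact permutation tests over 70 assignments. Genes are RefSeq's protein-coding ones (GRCm38.p6), which carry mm10 coordinates; a region was named for the nearest gene body within 50 kb. Of 385 distinct list symbols, 384 matched.

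Named items are, in each direction, the 12 regions with the smallest p (at most 1 per gene), 3 regions per list, 5 genes, and 6 regions split by calls; the promoters of Fos and others shown as sequence were added after their values were seen. Some items that this rule names are not reported here. The members and lists were chosen with earlier results of these data known. The comparison of reads over local background without the added 1, and reads without diabetic replicate 4, were added after seeing the data. Scripts were tested on simulated data.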

Additional observations from a re-analysis of the deposited data

Results flagged for a closer look

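In 4 places a single baseline sample stood far from the other 3 of its group, by the gap to its nearest neighbour relative to the group's range (Dixon's test at the 95% level). Chance marks about 5% of such groups. Diabetic replicate 4 had 1.11 summits per peak, below the other diabetic samples, which lay between 1.151 and 1.160. The same sample had a mean scaled log2 fold of -0.14 over regions of NF-κB genes, above the other diabetic samples at -0.22 to -0.23. Control replicate 4 had a median peak width of 293 bp, against 298 to 299 bp in the other controls. Its mean scaled log2 fold over sterol genes was 0.20, against 0.09 to 0.10 in the other controls.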

How the results depend on the processing

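The fits of single regions and of genes called 0 under every scaling, measure, filter and left-out sample tried, except that 1 region, lower in diabetic samples, was called when all 16 libraries entered the fit (adjusted p = 0.0365). The share of summits near gene ends was 0.801 percentage points higher in diabetic samples, but -0.135 points with equal-length lists, and -0.240 to 1.63 points with single samples left out. The difference in genome background was -0.0963 reads, but 0.0238 without diabetic replicate 4 and 0.0359 without control replicate 3, and -0.172 at the lowest, without control replicate 2. The between-group distance lay between -0.00128 (without control replicate 1) and 0.0310 (without diabetic replicate 1). Regions split by calls with equal-length lists numbered 24 (diabetic only) and 59 (control only) with 20000 peaks per sample. With 1 sample left out they numbered 105 to 305 and 207 to 482, both highest without diabetic replicate 1; a split of 3 to 0 is met more easily than 4 to 0. With full lists the counts were 26 to 359 (highest without diabetic replicate 1) and 247 to 749 (highest without control replicate 4); without diabetic replicate 1 the diabetic count exceeded the control count, 359 against 327. With −log10 q of at least 5, 13 regions were found only in diabetic samples and 195 only in control samples. For Dusp1 the mean over regions was -0.048 with summit reads; the cause was not tested beyond the local background given above. Equal replicate numbers name different animals, and same-numbered deviations correlated by 0.13, 0.01, 0.15 and 0.15; with the number as a replicate block 0 regions (lowest adjusted p = 0.395) and 0 genes (0.254) were called. The median interval was ±0.33, at a median of 21 to 46 reads per summit; the parts of counting error and of spread between samples in it were not separated.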
